A study of Mus musculus with 12 samples.

Results

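Gene expression around the central veins of the liver was compared between male and female mice on 6 of the 12 arrays of the study, 3 from males and 3 from females. The arrays were taken by their titles, which name the central zone, called zone 3. A probe was read if it lay on an autosome and was flagged well above background on every array of 1 sex or of both, which held for 25141 of 41174 non-control probes. Each gene with a name was read at its brightest such probe, and 14501 autosomal genes entered the test.

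The mice were untreated C3H/HeNCrlBR (C3H) animals with no transgene named, and the labels used here give no age. Zone 3, around the central veins, and zone 1, around the portal tracts, were cut from liver sections by laser capture microdissection, with 5 slides of sections for each zone of each mouse. Arcturus PicoPure reagents were used to prepare the RNA, the NuGEN Ovation Pico WTA system to amplify it and Cy3 to label it. Each sample was then read on 1 Agilent 1-colour mouse array. The groups were male zone 3, female zone 3, male zone 1 and female zone 1, with 3 arrays each, and the labels do not say which zone 1 and zone 3 samples share a mouse. The labels number the replicates but do not say in words that each came from a separate mouse, so the p-values measure the spread between these arrays.

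Blood crosses the liver lobule from the portal tracts to the central vein, and the last hepatocytes it passes carry much of the oxidation and conjugation of drugs and steroids. Many genes of these reactions differ between male and female rodents. The best known signal behind such differences is growth hormone, which is secreted in separated pulses in males and more evenly in females and acts on hepatocytes through its receptor, the kinase JAK2 and the transcription factor STAT5B. BCL6, more abundant in male liver, and CUX2, more abundant in female liver, are DNA-binding repressors known to act on many of the genes concerned.

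The signal on each array is given as log2 of the processed signal minus the array's 75th percentile, so a level of 0 is the 75th percentile. The share of probes well above background was 61.5 to 71.4% over the 6 arrays. Xist, the RNA that coats the inactive X chromosome, was lower in males by a log2 difference of -9.63, and the Y-linked genes Ddx3y, Eif2s3y, Kdm5d and Uty were higher in males by 8.20, 8.03, 5.95 and 4.86, as the sex labels say. The pericentral genes Glul (glutamine synthetase) and Cyp2e1 (an ethanol-oxidising P450) stood at mean levels of 9.33 and 8.08 in male and 9.55 and 8.07 in female zone 3, against 4.02 and 2.23 in male and 3.55 and 2.57 in female zone 1. Of the defining bile duct markers, Krt19 and Epcam were each well above background on 0 of 3 male and 1 of 3 female zone 3 arrays, and the periportal adhesion gene Cdh1 on none of the 6. The duct markers Krt7 and Sox9 were above background on all 6 and Spp1 on 2 of 3 arrays of each sex, with mean levels between -4.21 and -1.93. The first principal component of the zone 3 arrays held 42% of the variance and placed the males at -52.98 to -23.03 and the females at 25.5 to 52.05. Male replicate 1 (-52.98) and female replicate 3 (52.05) lay farthest out.

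The arrays lay on 3 slides, and no slide held both sexes of zone 3. All 3 male zone 3 arrays shared slide 1, female replicates 1 and 2 shared slide 2, and female replicate 3 was on slide 3, so no within-slide value of the sex difference exists. The zone 1 arrays on the same slides link them, and with slide as a fixed block in the model all 195 genes called below kept their direction, with a median ratio of 0.964 to the difference without the block. The median standard error then grew from 0.268 to 0.482, 152 of the 195 had an unadjusted p under 0.05, and 10 of them kept an adjusted p under 0.05. Among those 10 were Dct, Sult3a1, Sult2a2, Cyp2b9, Cyp2b13, Cyp4a14, Rad51b, Dhx36 and Klhl1. The other 185 calls below therefore rest on the fit without a slide term.

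**Figure D1:**
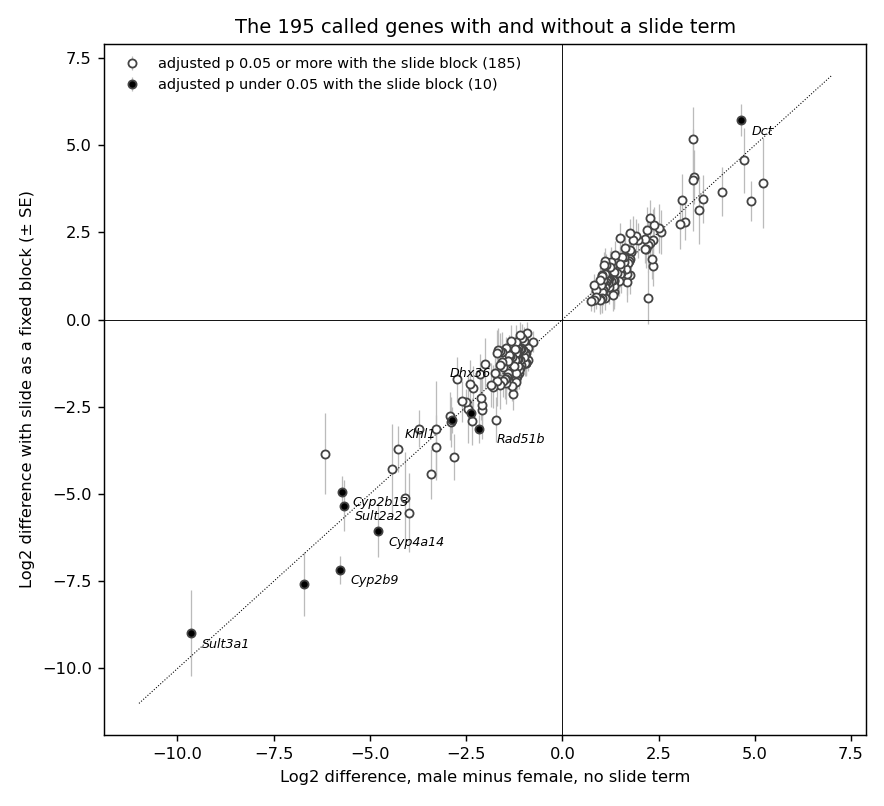
Log2 difference between male and female zone 3 without a slide term (horizontal) and with slide as a fixed block (vertical, bars are standard errors) for the 195 called genes. The dotted line marks equal values. All points lie in the 2 quadrants of equal sign, and the 10 filled points kept an adjusted p under 0.05 with the slide block.

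Around the central veins, 195 of 14501 autosomal genes (1.34%) differed between the sexes at an adjusted p under 0.05 in limma with Benjamini-Hochberg adjustment. Of these, 93 (0.641% of the genes tested) were higher in males and 102 (0.703%) in females. With the 47 called genes whose lower level was not measured on every array set at their lower bound, 168 genes differed by more than 2-fold, 54 by more than 4-fold and 16 by more than 10-fold. These bounds, written below as at least, hold for the main processing alone. Over all genes tested, the median difference was 0.03 on the log2 scale. The male and female values did not overlap for 3665 genes (25.3%), 2037 higher in males (14.0%) and 1628 higher in females (11.2%). All 195 called genes were among these, so separate groups add nothing to a call.

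The count of calls depended on single arrays. It was 101 without male replicate 1, 92 without male replicate 2 and 103 without female replicate 3. Of the 59 called genes followed, 37 kept their call whichever of the 6 zone 3 arrays was left out. Nr0b2, Csf1r, Foxm1 and Slc22a4 lost it whichever was left out. Acot3 and Vnn1 lost it without male replicate 2 (adjusted p = 0.0511 and 0.0569), Ntrk2 without male replicate 1 or female replicate 3 (highest adjusted p = 0.0592), Sall1 without male replicate 2 or female replicate 3 (0.0592) and Susd4 without male replicate 2 or female replicate 2 (0.0694). C8b, C9, Serpina3k, Mt1 and Pfkfb3 lost it without 4 of the 6, and Adh6-ps1, Ces1e, Ces1h, Ces2c, Ddc, Esr1, Fads3 and Mki67 without 5, all with the same direction. In whole tissue spots of this kind, fewer cells of a type and less RNA per cell cannot be told apart.

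**Figure D2:**
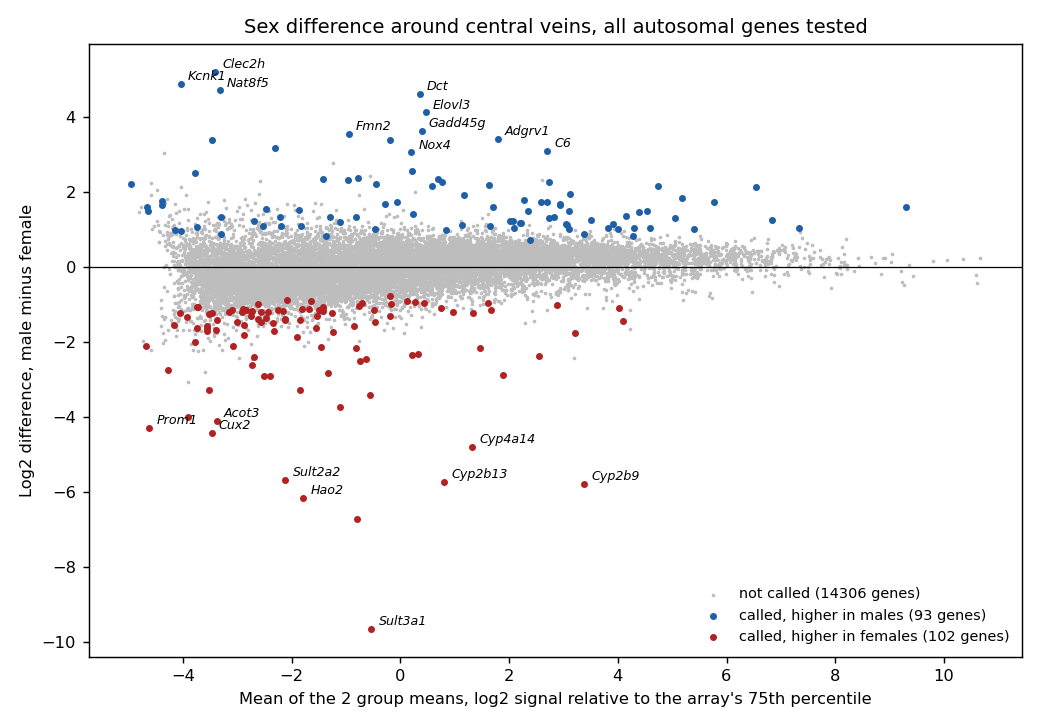
Log2 difference (male minus female) against the mean level of each of the 14501 autosomal genes tested, both on the log2 scale. Called genes are blue where higher in males (93) and red where higher in females (102), and named genes among the largest differences in each direction carry their symbols.

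Sult3a1, a cytosolic sulfotransferase that transfers sulfonate to amines, had the largest fold of the called genes, also when set at its lower bound. Its probe lies at chr10:33660082-33660141 of the mm7 build. It stood at 3.71, 4.88 and 4.29 on the female arrays and at -5.84, -3.74 and -6.51 on the male arrays, of which 1 measured it above background. The female level was at least 372-fold higher (log2 difference -9.66 ± 0.61 SE, n = 3 per sex, limma adjusted p = 3.83e-06). Sult2a2, a sulfotransferase of the hydroxysteroid type, was at -0.17, 1.02 and 1.31 in females and at -4.91, -4.84 and -5.13 in males, with no male array above background. It was at least 36.7-fold higher in females (log2 difference -5.68 ± 0.39, adjusted p = 8.68e-06). These were the 2 called among 11 sulfotransferase genes tested, whose median difference was -0.02.

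Hao2, a peroxisomal oxidase of long-chain hydroxy acids, was at 0.98, 1.55 and 1.33 in females and at -3.85, -5.79 and -4.97 in males. It was at least 44.7-fold higher in females (adjusted p = 0.000957) and was above background on 1 male array. Most male values of Sult3a1, Sult2a2 and Hao2 were not above background, so the size of the gap depends on the background level. Groups that do not overlap were a condition for naming these genes, so the gap adds no support.

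The Cyp2b genes encode P450 enzymes of drug and steroid oxidation. Cyp2b9 was measured on all arrays, at 6.05, 6.50 and 6.28 in females and at 0.63, 0.57 and 0.29 in males. It was 55-fold higher in females (log2 difference -5.78 ± 0.33, adjusted p = 1.55e-06). Cyp2b13 was at 3.25, 3.92 and 3.86 in females and at -2.32, -1.72 and -2.13 in males, a 53.2-fold difference (-5.73 ± 0.27, adjusted p = 2.35e-07). Cyp2b10, known as the member that phenobarbital induces, was 13.2-fold higher in females (-3.72 ± 0.28, adjusted p = 2.03e-05). The spread between arrays of 1 sex was small beside these differences. The members are close copies, and a probe for one may read another, so the split of signal among them is uncertain.

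The stretches upstream of the annotated starts of Cyp2b9 and Cyp2b13 are printed because these 2 genes had nearly the same difference and are close copies there too. They come from RefSeq on build GRCm38.p6, at chr7:26173159-26173408 and chr7:26061245-26061494, both on the plus strand. Of 250 bases compared, 248 (99.2%) were the same, and capitals mark the 2 bases that differ.
Cyp2b9: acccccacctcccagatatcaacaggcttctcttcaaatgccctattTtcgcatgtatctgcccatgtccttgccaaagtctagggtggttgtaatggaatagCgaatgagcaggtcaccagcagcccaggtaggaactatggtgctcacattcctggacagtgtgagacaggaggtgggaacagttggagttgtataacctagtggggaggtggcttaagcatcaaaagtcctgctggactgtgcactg
Cyp2b13: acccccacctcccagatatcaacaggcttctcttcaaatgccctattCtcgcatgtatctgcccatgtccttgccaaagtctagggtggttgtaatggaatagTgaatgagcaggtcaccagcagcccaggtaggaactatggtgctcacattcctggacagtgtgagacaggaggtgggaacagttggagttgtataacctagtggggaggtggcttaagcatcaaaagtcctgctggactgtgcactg

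Several female-higher genes encode enzymes of fatty acid handling. Cyp4a14, a fatty acid hydroxylase, was at 3.72, 4.25 and 3.19 in females and at -0.79, -1.17 and -1.25 in males, 27.6-fold higher in females (log2 difference -4.79 ± 0.44, adjusted p = 0.000133). Acot3, a peroxisomal acyl-CoA thioesterase, was at -1.71, -1.10 and -1.17 in females and was not well above background on any male array, at least 8.86-fold higher in females (adjusted p = 0.00907). Vnn1, a pantetheinase, was at 0.72, 0.55 and -1.03 in females and at -1.99, -3.10 and -3.12 in males, 7.05-fold higher in females (adjusted p = 0.0105). Cyp4a14, Acot3 and Vnn1 are known targets of the fatty acid sensor PPAR alpha, but the list of 41 tested PPAR alpha and fatty acid oxidation genes as a whole was centred at -0.00, with 3 higher in females and 1, Cyp4a12a, higher in males. Acot4 and Acot2, neighbours of Acot3 on chromosome 12, had differences of -1.76 (adjusted p = 0.0534) and -2.22 (adjusted p = 0.115). Abcd2, which carries very long chain fatty acids into peroxisomes, was at least 6.71-fold higher in females (-2.90 ± 0.36, adjusted p = 0.00159) and was above background on 2 male arrays.

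Other female-higher genes had different roles. Cux2, the repressor named above, was at -1.98, -1.43 and -0.37 in females and at -6.90, -3.66 and -6.50 in males, at least 7.8-fold higher in females (adjusted p = 0.0068), with 1 male array above background. Prom1, which encodes the membrane protein prominin 1, was at -3.32, -2.23 and -1.89 in females and above background on no male array, at least 3.99-fold higher (adjusted p = 7.07e-05). Slc22a26, an organic anion transporter, was 10.6-fold higher in females (-3.40 ± 0.42, adjusted p = 0.00157). Ntrk2, the receptor of the growth factor BDNF, was 5.12-fold higher (adjusted p = 0.0136) and Cyp39a1, an oxysterol hydroxylase of bile acid synthesis, 4.36-fold (adjusted p = 0.00696). Sall1, a zinc finger transcription factor, was 2.74-fold higher (adjusted p = 0.0145).

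Clec2h, a C-type lectin-like gene, was at -0.21, -0.61 and -1.60 in males and at -5.82, -6.49 and -5.75 in females, with no female array above background, and was at least 10.8-fold higher in males (log2 difference 5.21 ± 0.69, adjusted p = 0.00237). Kcnk1, a potassium channel subunit, was at -1.43, -1.66 and -1.71 in males and at -6.08, -6.57 and -6.83 in females, again with no female array above background. It was at least 6.26-fold higher in males (adjusted p = 3.27e-05). Nat8f5, of the N-acetyltransferase 8 family, was at -0.71, -1.42 and -0.75 in males and below background on all female arrays, at least 9.72-fold higher (adjusted p = 0.000179). For these 3 genes the bound is set by the background and the female level is not known.

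Dct encodes dopachrome tautomerase, an enzyme best known from melanin synthesis in pigment cells. Its probe lies at chr14:112415582-112415642 of mm7. It was at 2.84, 2.87 and 2.30 in males and at -2.34, -3.02 and -0.53 in females, measured on all arrays. It was 24.8-fold higher in males (4.63 ± 0.48, adjusted p = 0.000315), with female replicate 3 above the other females. Dct was among the 2 male-higher genes called with the slide block, where its difference was 5.72 (adjusted p = 0.000594). The other was Lhpp, with a difference of -0.02 without the block and 3.30 with it. A call with the block thus also depends on the zone 1 arrays that link the slides.

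Elovl3, which lengthens saturated and monounsaturated fatty acids, was at 3.13, 2.06 and 2.40 in males and at -2.07, -1.59 and -1.16 in females. It was 17.6-fold higher in males (4.14 ± 0.39, adjusted p = 0.000144). Gadd45g, a stress and growth arrest gene, was at 3.09, 2.13 and 1.41 in males and at -1.09, -1.61 and -1.59 in females, 12.5-fold higher in males (3.64 ± 0.34, adjusted p = 0.000144). Both genes had separate groups, with a wider spread among the males than among the females for Gadd45g. Nox4, an NADPH oxidase that makes hydrogen peroxide, was at 2.41, 1.65 and 1.13 in males and at -1.16, -1.25 and -1.59 in females, 8.35-fold higher in males (adjusted p = 0.00122). Adgrv1, an adhesion G protein-coupled receptor, was 10.7-fold higher in males (adjusted p = 0.00122). Fmn2, an actin-nucleating formin, was 11.8-fold higher (adjusted p = 0.00252), but its other kept probe had a difference of the opposite sign.

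**Figure D3:**
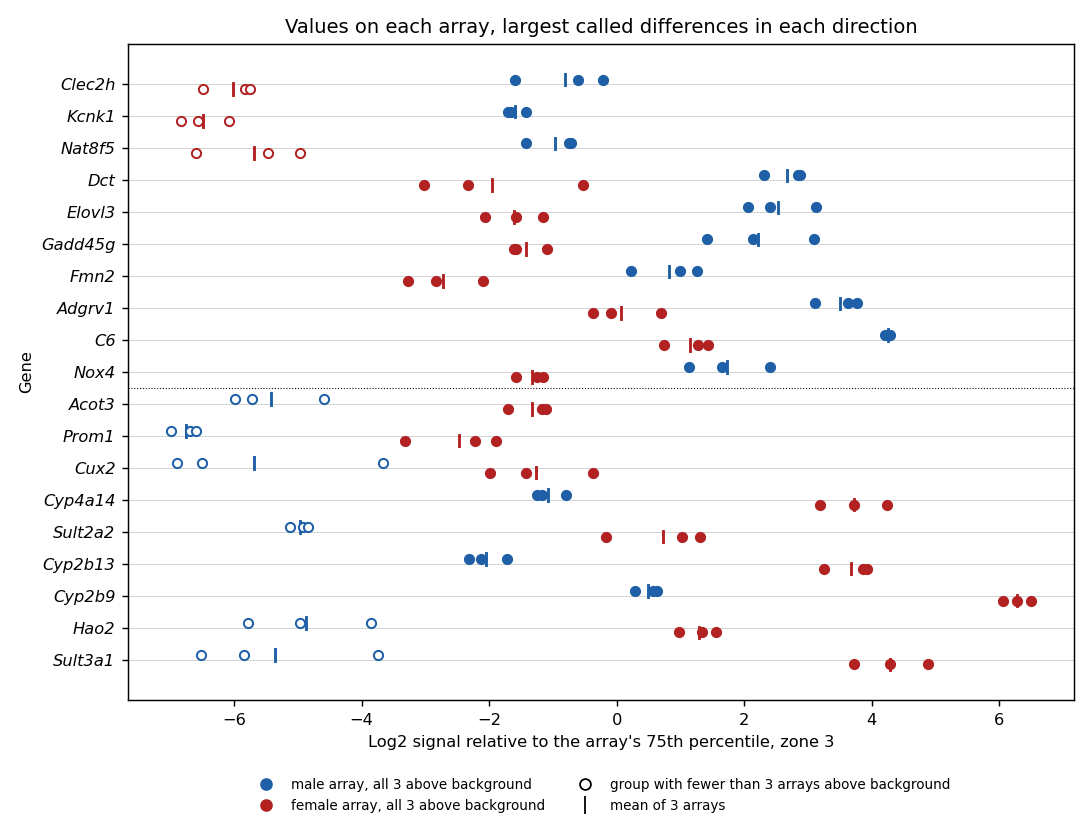
Level on each of the 6 zone 3 arrays (log2 relative to the array's 75th percentile) for named genes among the largest called differences (10 higher in males, 9 higher in females), males in blue and females in red. Vertical ticks are means of 3 arrays, and open circles mark groups with fewer than 3 arrays above background. Groups that do not overlap were a condition for showing a gene. The widest plotted gap, to male values partly below background, is that of Sult3a1.

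The complement genes C6, C8a, C8b and C9 encode proteins that join in the pore of the membrane attack complex. C6 was at 4.28, 4.27 and 4.20 in males and at 1.44, 0.73 and 1.28 in females, 8.57-fold higher in males (3.1 ± 0.37, adjusted p = 0.00112). C8b was 2.07-fold (adjusted p = 0.0203), C8a 2.06-fold (adjusted p = 0.0188) and C9 2.81-fold higher in males (adjusted p = 0.0335). Each of the 4 was higher on all male arrays than on any female array, as was every gene called higher in males. With Serpina3k, a serpin, they were the 5 called among 39 acute phase and complement genes tested, all higher in males, while the list's median was 0.10. Of the 39, 12 had negative differences, and Hamp2 (-1.66, adjusted p = 0.108), Itih4 (-0.69, adjusted p = 0.15) and Serpina3n (-0.41, adjusted p = 0.205) had female values above all male values without being called. The calls of C8b, C9 and Serpina3k were lost under 9, 10 and 10 of the 22 alternative settings.

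The called genes of glutathione and glucuronic acid conjugation and of ester cleavage were all higher in males. Gstp1, a glutathione S-transferase, was at 7.90, 7.52 and 7.39 in males and at 5.72, 5.21 and 5.48 in females, 4.39-fold higher in males (2.13 ± 0.20, adjusted p = 0.000144). Gsta2, of the same superfamily, was 3.45-fold higher (adjusted p = 0.00176). They were the 2 called of 21 glutathione S-transferase genes, whose median was 0.02. Of 15 carboxylesterase genes tested, 4 were higher in males and none in females, with a median of 0.56. Ces2b was 3.88-fold (adjusted p = 0.00208), Ces2c 3.59-fold (adjusted p = 0.0242), Ces1h at least 2.31-fold (2 of 3 female arrays above background, adjusted p = 0.0431) and Ces1e 2.01-fold higher (adjusted p = 0.038). The direction of these 4 genes held under each alternative tried, but the calls of Ces1h and Ces1e were lost under 13 of 21 and 12 of 22 alternatives. Of 13 UDP-glucuronosyltransferase genes, whose median was 0.44, Ugt2b35 was called and was 2.85-fold higher in males (adjusted p = 0.00168). The ABC transporter Abcg2, which exports drugs and urate, was 3.16-fold higher in males (adjusted p = 0.00329), the carnitine and ergothioneine transporter gene Slc22a4 2.51-fold (adjusted p = 0.0419).

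A list of 22 tested genes known as male-biased in mouse liver held 9 called higher in males and none higher in females, with a median log2 difference of 0.86. Of the 22, 20 had a positive difference. Beside Elovl3, C6, Gstp1 and C8b, these were Bcl6, Cyp4a12a, Cyp7b1, Mup3 and Susd4. Cyp4a12a, a hydroxylase that makes 20-HETE, was at 5.54, 6.10 and 5.86 in males and at 4.17, 3.33 and 3.50 in females, 4.5-fold higher in males (2.17 ± 0.27, adjusted p = 0.0015). Cyp7b1, an oxysterol and steroid hydroxylase, was at 6.73, 6.84 and 6.35 in males and at 5.07, 4.84 and 4.77 in females, 3.36-fold higher (1.75 ± 0.22, adjusted p = 0.00168). Both P450 genes were well measured in females too. Mup3, a major urinary protein that carries pheromones, was 3.02-fold higher in males (adjusted p = 0.003), and Susd4, a complement regulator, 2.67-fold (adjusted p = 0.015).

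Some genes often used as male markers did not pass the test here. Hsd3b5, a steroid dehydrogenase, was at 3.78, 3.76 and 3.80 in males and at 1.99, 0.96 and 1.40 in females. Its groups did not overlap, but its difference of 2.33 ± 0.57 had an adjusted p of 0.0699 in limma. That error is shared over the 4 groups. The standard deviation of Hsd3b5 was 0.02 in male and 0.52 in female zone 3, and 1.56 in female zone 1. Under 5 of the 22 alternative settings Hsd3b5 was called. The organic anion transporter Slco1a1 had a difference of 0.96 (95% interval 0.13 to 1.80, adjusted p = 0.182), Selenbp2, a selenium-binding protein gene, 0.68 (adjusted p = 0.11), the steroid hydroxylase Cyp2d9 0.26 (-0.10 to 0.62, adjusted p = 0.372) and Mup1 0.25 (-0.40 to 0.90, adjusted p = 0.638). Igfals, which stabilises circulating IGF1, lay on the female side at -1.35 (adjusted p = 0.152), with male replicate 1 at -2.01 and the other males at -0.07 and 0.08. The lists were drawn up with earlier results of these data known, so their direction is not independent evidence.

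The list of genes known as female-biased held 35 tested members, of which 17 were called higher in females and none higher in males, with a median of -1.66. They include Sult3a1, Hao2, Sult2a2, the 3 Cyp2b genes, Cyp4a14, Acot3, Cux2, Prom1, Slc22a26, Abcd2, Ntrk2, Cyp39a1, Sall1 and Prlr. The other 18 had differences from -2.44 to 0.46. Among them Akr1b7, an aldo-keto reductase, had a difference of -2.44 (adjusted p = 0.0946, 2 male arrays above background) and the fatty acid hydroxylase Cyp4a10 -0.66 (adjusted p = 0.0972). The P450 genes Cyp2a4 and Cyp3a41a, female markers of whole liver, had differences of 0.09 (95% interval -0.38 to 0.56) and 0.24 (-0.24 to 0.73). The small difference of Cyp2a4 became negative with quantile normalization, with another background correction and with its probes averaged.

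**Figure D4:**
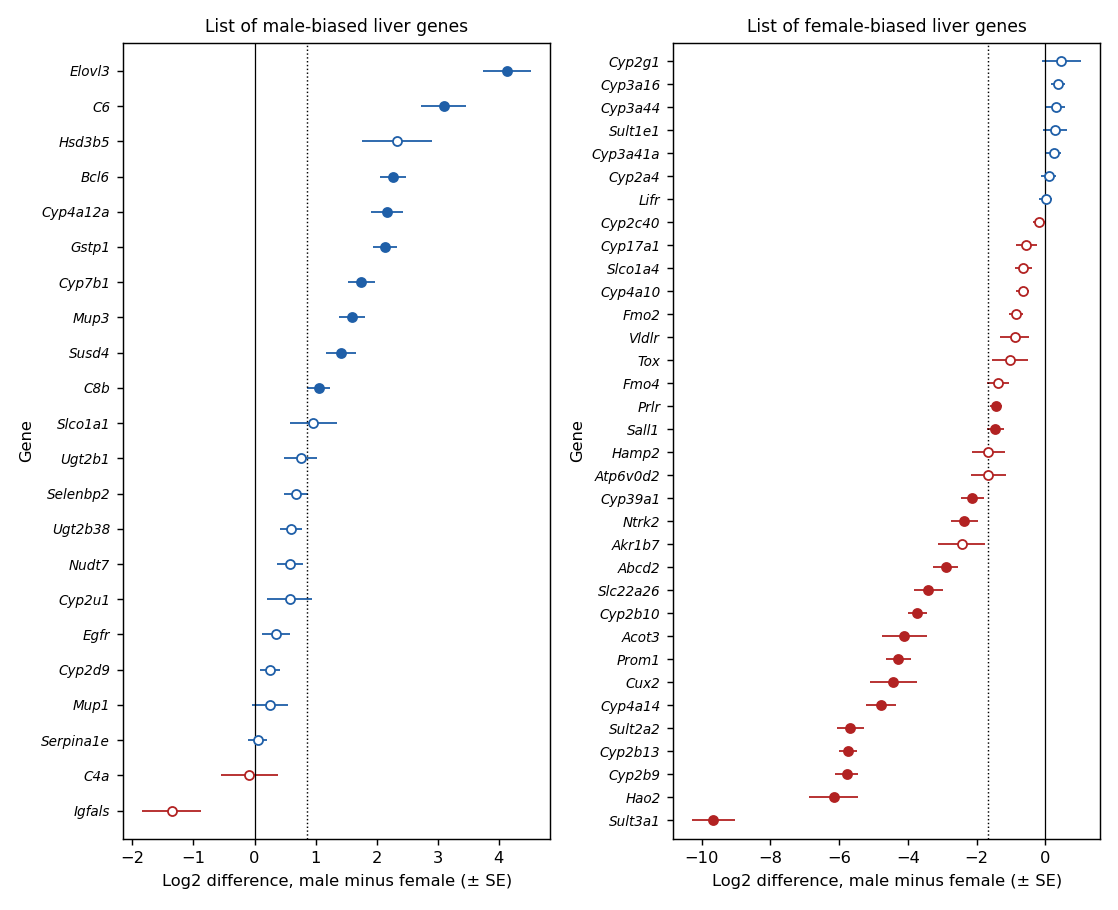
Log2 difference (male minus female, bars are standard errors) of the tested members of the male-biased list (left, 22 genes) and the female-biased list (right, 34 of 35 genes shown). Filled points were called at an adjusted p under 0.05, and the dotted lines are the medians over all tested members, 0.86 and -1.66.

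Among 34 tested genes of the growth hormone and steroid receptor axis, 2 were higher in males and 4 in females, and the median was 0.20. Cish, a feedback inhibitor induced by STAT5, was at 2.29, 1.35 and 0.85 in males and at -0.49, -0.78 and -1.96 in females, 5.94-fold higher in males (2.57 ± 0.40, adjusted p = 0.00755). Bcl6 was at 4.05, 3.95 and 3.62 in males and at 1.40, 1.87 and 1.56 in females, 4.81-fold higher in males (2.26 ± 0.21, adjusted p = 0.000144). In both genes all males lay above all females, as in every gene called higher in males. Prlr, the prolactin receptor, was at 4.76, 4.84 and 4.85 in females and at 3.33, 3.27 and 3.55 in males, 2.7-fold higher in females (-1.43 ± 0.17, adjusted p = 0.00135). Esr1, the estrogen receptor, was 2-fold (adjusted p = 0.0409) and Nr0b2, a nuclear receptor that represses bile acid synthesis, 2.27-fold higher in females (adjusted p = 0.0392), and each of these 2 calls was lost under 14 of the 22 alternatives. Together with Cux2 these were the 4 female-higher members. The growth hormone receptor gene Ghr (0.35, adjusted p = 0.272), Stat5b (0.27, adjusted p = 0.504), the pioneer factor gene Foxa1 (1.19, adjusted p = 0.0982) and the binding protein gene Igfbp3 (-1.07, adjusted p = 0.0511) did not pass the test, and Stat5b changed sign when all of its probes were averaged.

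STAT5 binds the letters TTCNNNGAA, which read the same on both strands. This motif was searched in windows from 250 bases before to 50 bases after each annotated start, counting overlapping matches. It was present in 9.55% of 27025 genes with a window and in 8.59% of the 10959 tested genes with one. Of the called genes with a window it was present in 8 of 68 higher in males (11.8%) and 7 of 72 higher in females (9.72%). A gene with several windows was counted by the window with most matches. Stretches of 3 called genes that hold matches are printed with the motif in capitals. These genes, chosen after their values were seen, are the 2 male-higher genes of the axis and the gene with the largest fitted difference. Bcl6 was counted with 3 matches, but its printed stretch is from another of its windows and holds fewer. The stretches come from RefSeq on GRCm38.p6, at chr9:107296655-107296683 on the plus strand for Cish, chr16:23988952-23988980 on the minus strand for Bcl6 and chr10:33857603-33857631 on the plus strand for Sult3a1.
Cish: agttTTCCTGGAAagTTCTTGGAAatctg
Bcl6: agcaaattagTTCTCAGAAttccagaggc
Sult3a1: gtttggctgaTTCTTTGAAtagtttgttt
A match describes these letters and was not tested as a binding site.

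Growth and stress genes were split between the sexes. Myc, a transcription factor of cell growth, was at 1.99, 1.43 and 1.54 in males and at -0.45, -0.39 and -0.67 in females, 4.44-fold higher in males (2.15 ± 0.21, adjusted p = 0.000162). Mt1, a metallothionein that binds zinc and copper, was 2.23-fold higher in females (adjusted p = 0.0255). They and Gadd45g were the 3 called among 24 immediate early and stress genes, whose median was 0.12. Of 19 cell cycle genes tested, 3 were higher in females and none in males, with a median of -0.59. Top2a, a topoisomerase of dividing cells, was at -1.57, -1.79 and -0.95 in females and at -3.66, -3.98 and -4.47 in males, of which 2 arrays were above background, at least 5.86-fold higher in females (adjusted p = 0.0015). Mki67, the proliferation marker, was 2.47-fold (adjusted p = 0.0394) and Foxm1, a transcription factor of mitosis, 2.3-fold higher in females (adjusted p = 0.0435). The call of Mki67 was lost under 13 of the 22 alternatives. That of Foxm1 was lost under 15 with the same direction and under 1 more with the sign changed. Under the normexp background correction the difference of Foxm1 and the median of the cell cycle list both became 0.00664.

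The lists of central hepatocyte functions ranged from no called gene to several, beside 1.34% called among all autosomal genes tested. At that share a list of 17 to 38 genes may hold no called gene, so a list without calls is not shown to be low. Whether any list held more calls than that share was not tested. Of 27 cholesterol genes, 17 clock genes, 38 pericentral and 33 periportal hepatocyte markers none was called in limma; 1, 2, 5 and 4 of them had an unadjusted p under 0.05. With the slide block the pericentral gene Lhpp, at 2.58 to 3.00 in males and 2.61 to 2.94 in females, went from a difference of -0.02 (adjusted p = 0.988) to 3.30 (adjusted p = 0.0163). The medians of these lists were 0.14, 0.04, 0.14 and 0.03. Of 31 fatty acid and triglyceride synthesis genes Elovl3 was called, of 28 glycolysis and gluconeogenesis genes Pfkfb3, which makes the glycolytic activator fructose 2,6-bisphosphate (3.23-fold higher in males, adjusted p = 0.0392), and of 37 urea cycle and amino acid genes Ddc, the aromatic amino acid decarboxylase (2.27-fold higher in males, adjusted p = 0.025). Of 30 bile acid genes, Cyp7b1 was higher in males and Cyp39a1 and Nr0b2 were higher in females. Of 53 P450 genes of families 1 to 4, the called ones were Cyp4a12a and Cyp4v3 on the male side and Cyp4a14 and the 3 Cyp2b genes on the female side, and the median was 0.17. Cyp4v3, a fatty acid hydroxylase gene, was 2.05-fold higher in males (adjusted p = 0.0234).

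Markers of some other cell types lay somewhat on the female side. The summed signal of 17 lymphocyte and antigen presentation genes was 2.84 to 3.08 (log2) on the male and 3.51 to 3.97 on the female arrays, and that of 24 stellate cell, fibroblast and smooth muscle genes 6.83 to 7.03 and 7.13 to 7.4, with no overlap in either. The medians of the gene differences in these 2 lists were -0.79 and -0.61. Of their differences 16 of 17 and 21 of 24 were negative, against 6983 of 14501 over all genes tested. Among stellate cell and fibroblast markers, Reln and Lrat had differences of 0.08 and 0.20. Dcn, Col1a1 and Col3a1 had -0.44, -0.68 and -0.76, and none of these markers was called. Of 21 Kupffer cell and macrophage genes 17 were negative, with a median of -0.41 and summed signals of 5.3 to 5.77 in males and 5.46 to 6.29 in females. Endothelial genes (25 tested, median -0.02) had summed signals of 5.48 to 5.97 in males and 5.65 to 5.74 in females. Bile duct genes (14 tested, median -0.34) had sums of 6.16 to 6.58 in males and 6.08 to 6.13 in females. The bile duct sums thus did not overlap either, but with males higher. In these 5 lists 2 genes were called, both higher in females. With the normexp background correction the medians of the lymphocyte, stellate and Kupffer cell lists were -0.02, -0.36 and -0.14 and that of the bile duct list 0.00599. The shift was not particular to liver cell types. Of 14 tested genes of pancreas, gut, kidney and muscle 11 were negative, with a median of -0.40 (0.02 with normexp). Of 70 ribosomal protein genes 59 were positive, with a median of 0.25. Ccl5, a chemokine of T and NK cells, was at 1.77, 1.38 and 1.57 in females and at 0.28, 0.46 and 0.38 in males, 2.3-fold higher in females (adjusted p = 0.00458). Csf1r, the macrophage growth factor receptor, was 2.2-fold higher (adjusted p = 0.0409), a call lost under 16 of the 22 alternatives. Of the defining lymphocyte genes, Cd8a, Lck, Gzma, Gzmb and Ms4a1 did not pass the filter in either sex. The part of these cells in the female-higher genes named above was not tested.

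The same genes were read on the zone 1 arrays, which the zone 3 difference does not use, although they may come from the same mice. Of the 93 genes higher in males around central veins, 80 were also higher in males around portal tracts and 29 were called there. Of the 102 higher in females, 94 were on the same side in zone 1 and 22 were called there on that side. Of all genes tested, 61.4% had the same sign in both zones, and 110 (0.759%) were called in zone 1. Sult2a2 was above background on all female and no male arrays in both zones, so its differences there are bounds and were not compared. Cyp4a14 and Vnn1, called in zone 3, had -1.40 (adjusted p = 0.207) and -0.42 (adjusted p = 0.715) in zone 1, but their difference between zones did not pass the test (adjusted p = 0.116 and 0.417).

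The difference between the sex effects of the 2 zones was called for 11 genes (0.0759% of those tested). Kcnk1 and Dct were higher in males in zone 3 and had zone 1 differences of -1.41 and -1.43. Dct was at 1.02, 1.36 and 1.42 in male zone 1 and at 2.58, 2.58 and 2.92 in female zone 1, so that female zone 3 had the lowest values of the 4 groups. Cyp4a12a and Cyp7b1 were higher in males in both zones, by 6.01 and 4.46 in zone 1 against 2.17 and 1.75 in zone 3. In females Cyp7b1 was at 1.35, 0.74 and 1.26 in zone 1 and near 5 in zone 3. Prom1 and Fads3, a fatty acid desaturase family gene, were the other 2 called in zone 3 as well. Fads3 was 1.94-fold higher in females in zone 3 (adjusted p = 0.042, a call lost under 14 of the 22 alternatives) and higher in males by 1.02 in zone 1.

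Cyp2a4 and Cyp2a5, P450 enzymes that hydroxylate testosterone and coumarin, had no called difference in zone 3. Cyp2a4 was at 5.80, 5.99 and 5.73 in male and at 5.59, 5.63 and 6.02 in female zone 3, with overlapping groups. In zone 1 it was at 0.07, 0.35 and 0.73 in males and at 5.48, 5.80 and 5.81 in females, a difference of -5.31. The female values were thus alike in both zones and the male values low in zone 1. Cyp2a5 had differences of 0.17 in zone 3 and -4.02 in zone 1. The difference between zones was 5.41 ± 0.30 for Cyp2a4 (adjusted p = 8.87e-06) and 4.18 ± 0.42 for Cyp2a5 (adjusted p = 0.00113), and both kept an adjusted p under 0.05 with the slide block.

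The upstream stretches of this pair are printed because the 2 genes shared this pattern and their probes may read each other. They lie at chr7:26306943-26307191 and chr7:26835089-26835337 of GRCm38.p6 (RefSeq, plus strand), and of 249 bases compared 245 (98.4%) were the same. Capitals mark the 4 that differ.
Cyp2a4: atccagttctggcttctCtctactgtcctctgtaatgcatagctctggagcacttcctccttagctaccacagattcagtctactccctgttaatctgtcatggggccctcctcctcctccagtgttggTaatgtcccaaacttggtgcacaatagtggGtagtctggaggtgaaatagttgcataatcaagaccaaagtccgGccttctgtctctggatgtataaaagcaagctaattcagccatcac
Cyp2a5: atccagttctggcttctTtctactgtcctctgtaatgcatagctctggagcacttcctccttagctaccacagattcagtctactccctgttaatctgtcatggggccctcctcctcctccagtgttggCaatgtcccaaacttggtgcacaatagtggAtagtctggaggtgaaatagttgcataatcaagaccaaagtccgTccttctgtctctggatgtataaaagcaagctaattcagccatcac

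**Figure D5:**
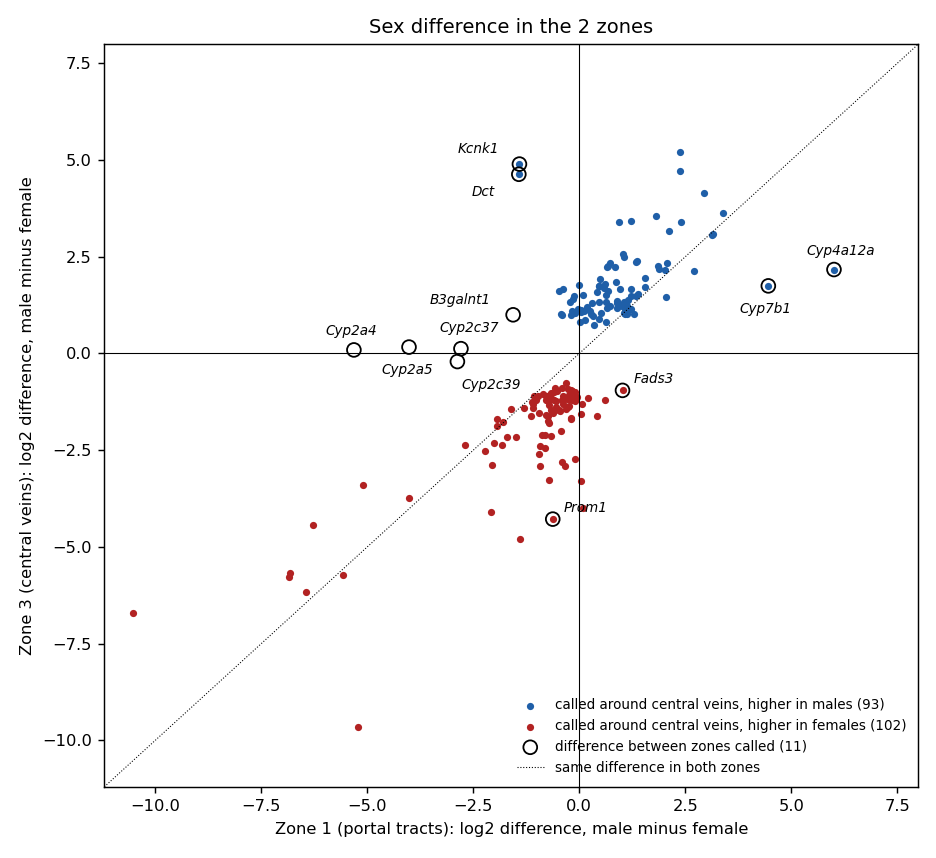
Log2 difference (male minus female) around portal tracts (horizontal) and around central veins (vertical) for the 195 genes called around central veins, blue where higher in males and red where higher in females. Black rings mark the 11 genes whose difference between zones was called, of which Cyp2a4, Cyp2a5, Cyp2c37, Cyp2c39 and B3galnt1 were not called around central veins and are drawn as rings alone, and the dotted line marks equal differences. Cyp2a4 and Cyp2a5 lie on the horizontal axis line, with differences of -5.31 and -4.02 around portal tracts.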

How the data were processed

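Per the file headers, the deposited files are output of Agilent Feature Extraction 9.5.3.1 (9.5 in the submitters' processing notes). Their processed signal is a linear intensity from which that software had subtracted background and removed spatial trends. They also hold mean and background intensity and flags of other kinds, and probe coordinates on mm7. The deposited value table equals the processed intensity at all 45018 spots of every array (tolerance 1e-06) and is not scaled.

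Control spots (1639) and outlier spots were left out, spots of a probe were averaged, and log2 minus the array's 75th percentile was taken. Gene names came from RefSeq identifiers (22951 probes), current symbols (6659), synonyms (3109) or the files (1881); 6574 probes had no name. All 12 arrays entered 1 limma model (3.58.1, R 4.3.3) of 4 group means, with 8 residual and 3.95 prior degrees of freedom, over 15111 genes of all chromosomes; autosomal genes are reported. Replicate number was not a block: same-numbered zone 3 arrays of the 2 sexes, which are different mice, had correlations of deviations of -0.0916 to 0.00143. Same-numbered zone 3 and zone 1 arrays had -0.0892 to 0.0577 in males and -0.0097 to 0.0733 in females. Tests are two-sided, with Benjamini-Hochberg adjustment over all 15111 genes, and a gene is called under 0.05. Errors are standard errors from the fit. On the lower side, arrays without signal above background took the lowest signal that passed on that array, which gives the bounds written as at least. These bounds hold for this processing only. Under the alternative settings the smallest log2 differences fell short of them, for example -0.28 for Prom1, -0.44 for Top2a and -0.67 for Acot3. They were -0.68 for Cux2, -0.69 for Abcd2 and 1.22 for Kcnk1. The model was tested on simulated data. The number of arrays limits the precision.

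The members and the gene lists were chosen with earlier results of these data known. Named were the 10 largest called, non-overlapping fitted differences in each direction (clone names passed over), up to 4 called genes of each list or family, members of the male-biased, female-biased and growth hormone lists, and genes called for the difference between zones. Summed signals are log2 of the sum over a list's tested genes. Probes of close copies (Cyp2a, Cyp2b, Cyp2c, Cyp3a, Cyp4a, Mup, Ces, Ugt2b) may read more than 1 member. Some results are not reported here. Probes were not placed on exons or untranslated regions here.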

Additional observations from a re-analysis of the deposited data

Results flagged for a closer look

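The sex difference around central veins differed from that around portal tracts for 11 genes, by the test of the difference itself (limma, adjusted p under 0.05). All values are the zone 3 difference minus the zone 1 difference, male minus female, on the log2 scale with 3 arrays in each of the 4 groups. It was positive for Kcnk1 (6.31, adjusted p = 0.00069), Dct (6.06, adjusted p = 0.00289), Cyp2a4 (5.41, adjusted p = 8.87e-06), Cyp2a5 (4.18, adjusted p = 0.00113), Cyp2c37 (2.91, adjusted p = 0.00789), Cyp2c39 (2.67, adjusted p = 0.000897) and B3galnt1 (2.56, adjusted p = 0.0295). It was negative for Cyp4a12a (-3.84, adjusted p = 0.00113), Prom1 (-3.66, adjusted p = 0.0248), Cyp7b1 (-2.71, adjusted p = 0.0035) and Fads3 (-1.97, adjusted p = 0.0275). With slide as a fixed block Kcnk1, Dct, Cyp2a4, Cyp2a5, Cyp2c37 and Cyp2c39 kept an adjusted p under 0.05. Kcnk1 on female and Prom1 on male zone 3 arrays were not above background, so the sizes of these 2 values depend on the background level.

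Cyp2c37 and Cyp2c39 encode P450 enzymes that oxidise arachidonic acid and retinoic acid. They had zone 3 differences of 0.12 and -0.21 and zone 1 differences of -2.79 and -2.87. Female mean levels of Cyp2c37 and Cyp2c39 were 7.75 and 7.24 in zone 3 and 3.98 and 5.83 in zone 1. Male mean levels were 7.87 and 7.03 in zone 3 and 1.19 and 2.96 in zone 1, so both sexes had lower values in zone 1. B3galnt1, a glycosyltransferase, had a zone 3 difference of 1.00 (adjusted p = 0.0867) and a zone 1 difference of -1.56.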

How the results depend on the processing

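Of the 59 called genes followed over 22 alternative settings, 6 kept their call under every one (among them Dct, Cyp4a14, Cyp2b13, Cyp2b9 and Sult3a1), and 53 lost it under at least 1, most of them under the slide block. The count of 195 calls (93 higher in males, 102 in females) became 328 (253 in males, 77.1% of calls against 47.7%) with median centring, where the median of all genes moved from 0.03 to 0.21. It became 114 (45 in females, 60.5% in males) without scaling (median 0.13), 36 (21 and 15) with normexp background, 108 (53 and 55) without a filter and 70 (35 and 35) from the 6 zone 3 arrays alone. With slide as a block it was 11 (2 and 9, with 6 for the difference between zones), and with slide as a random block 392 (173 and 219). The random block fit estimated a correlation within slides of -0.053, so its larger count is no sign of firmer calls. A robust, trended fit called 148 higher in males. Leaving out 1 array gave 92 to 193 calls, 40 to 97 higher in males and 51 to 113 in females. Replicate number as a block gave 142 calls, 136 of them shared. The labels do not say whether the numbers pair the arrays. Among values near 0, Cyp2a4 became -0.0816 with quantile normalization, -0.106 with normexp and -0.0866 with all probes averaged, Cyp2a5 -0.00886 and -0.133 with the first 2 of these, Cyp2c37 -0.18 with normexp and Cyp2c39 0.0943 with the slide block. Stat5b became -0.53 with all probes averaged and Foxm1 0.00664 with normexp, and the median of the growth hormone list became -0.0285 with normexp and -0.00519 with 1 test per probe. The causes were not tested. Of the tested genes, 889 were well above background on all arrays in males alone and 363 in females alone, so their other level is a bound.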

Other observations

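Some called genes outside the lists, chosen after their values were seen, had large differences. Slc10a2, the bile acid transporter best known from the ileum, was at 1.97, 1.96 and 1.80 in males and at -0.54, -1.08 and 0.54 in females, 4.83-fold higher in males (adjusted p = 0.00756). Asns, asparagine synthetase, was 3.35-fold higher in males (adjusted p = 0.0223), and Hhex, a homeobox factor of liver development, 2.52-fold (adjusted p = 0.00385). Acnat2, an acyltransferase that joins fatty acids to amino acids, was at 2.62, 2.07 and 2.92 in females and at -0.34, 0.73 and 0.77 in males, 4.44-fold higher in females (adjusted p = 0.00448).

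Cenpf and Mcm10, called cell cycle genes outside the list, were also chosen after their values were seen and differed in direction. Cenpf, a kinetochore protein gene, was 3.48-fold higher in females (adjusted p = 0.0134). Mcm10, which acts at the start of DNA replication, was at 5.37, 5.21 and 5.25 in males and at 3.92, 3.57 and 3.86 in females, 2.81-fold higher in males (adjusted p = 0.000905), while the proliferation genes Top2a and Mki67 were higher in females.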
